A study of Mus musculus with 137 samples.

Results

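The Rab family of small GTPases was followed through classical activation of mouse bone marrow-derived macrophages that carried altered alleles of Becn1, the gene of the autophagy protein Beclin1. Members were the gene symbols made of Rab, a number and at most a letter and a digit, so that effectors and adaptors with longer symbols stay out. The rule found 58 members among the 34573 symbols of the count tables, and each had at least 1 count. Marrow came from mice aged 7 weeks, and M-CSF (20 ng/ml) turned it into macrophages within 7 days. LPS and IFN-gamma, each at 100 ng/ml, were then added together, and cells were taken at 0 h, 6 h and 24 h. In all, 3 cohorts were deposited, with 137 libraries in 18 groups. In KO1 and KO2 the mutants (KO) were Beclin1flox/flox-LysM-Cre+ and the controls (WT) Beclin1flox/flox-LysM-Cre-, so that both carry the floxed alleles and only the mutants carry Cre, which the LysM promoter drives in myeloid cells. In KI the mutants (F121A) were Beclin1F121A/F121A, with a substitution in Beclin1 on both alleles, and the controls were their WT littermates. KO1 has 3 cultures per genotype, each with 3 repeat libraries at each time, which were summed, so that n is 3. KO2 has 8 libraries per group, except 7 in WT at 24 h, and KI has 6. Whether the libraries of KO2 and KI came from separate mice or cultures is not given in the labels, so p-values measure the spread between libraries, which may be technical.

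Rab proteins are molecular switches. In the GTP-bound state each marks a particular membrane and recruits effectors such as tethers, motors and lipid kinases; exchange factors load the GTP, GTPase-activating proteins end the signal, and GDI proteins hold the prenylated, GDP-bound form in the cytosol. In macrophages they order the path of a phagosome, which fuses first with Rab5-positive early endosomes and later with Rab7-positive late endosomes and lysosomes, and they steer the secretion of cytokines and the delivery of receptors to the surface. Beclin1 is a subunit of the class III PI3-kinase complexes, whose lipid product works beside Rab5 on endosomes and in autophagy. The members were placed by textbook role: 16 act between the ER and the Golgi or within it, 12 in recycling and exocytosis, 11 on secretory granules and lysosome-related organelles, 9 on early endosomes and phagosomes, 5 on late endosomes and lysosomes, and 5 in cilia or other places. The symbol Rab1 of the tables is the gene now called Rab1a, and Rab7l1 is Rab29.

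The depth of a library was 1898574 to 6579185 counts for KO1, 1448218 to 15627379 counts for KO2 and 3574158 to 11786453 counts for KI. Becn1 averaged 11.2 ± 2.66 CPM (counts scaled to a common library size) in resting KO macrophages of KO1, against 32 ± 4.29 CPM in WT (SD, n = 3 each), and 3.37 ± 1.12 CPM in resting KO macrophages of KO2, against 33.1 ± 3.28 CPM in WT (SD, n = 8 each). The F121A allele left the Becn1 level at 28.6 ± 2.61 CPM, against 30.2 ± 3.21 CPM in WT (SD, n = 6 each). In KO2 the X-inactivation RNA Xist averaged 0.516 CPM in resting KO and 173 CPM in resting WT, and the Y-linked gene Ddx3y 11.5 CPM in KO and 0.130 CPM in WT, so that the effect of the KO and that of sex cannot be told apart there. Lyz2, the gene of the LysM locus that carries Cre, was lower in KO of KO2 at 0 h (log2 difference -1.52 ± 0.12). It was also lower in F121A of KI at 24 h (-0.52 ± 0.09, adjusted p 2.0e-04, edgeR), and in KO1 it was not called at 0 h (-0.77 ± 0.41). The labels of 2 libraries, 1 of KO1 KO at 6 h and 1 of KI WT at 6 h, conflict on the time, and the title was followed. Macrophage markers were present in every group, with 13 of 14 listed genes found in the tables and none of the 13 at 0 in any group, while Cd3e of T cells and Tpsb2 of mast cells were near 0 in all groups. The summed lists of neutrophil, erythroid, monocyte, dendritic, and T and NK cell markers were not at 0, and are given beside the results. So are B cell markers, which summed to 16.7 to 23.9 CPM in resting WT of KI. Replicate 5 of F121A at 0 h stood apart, with a TMM factor of 1.18, against 1.70 to 1.94 in the other F121A libraries of that time.

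Of the 58 members, 40 had enough counts to be tested in all 3 cohorts, 9 in 1 or 2 cohorts and 9 in none. The 9 below the filter everywhere were Rab3b, Rab15, Rab17, Rab25, Rab30, Rab36, Rab39b, Rab40b and Rab42, several of them Rabs known from neurons and epithelia. Rab3c, Rab4b, Rab26, Rab37, Rab38 and Rab44 passed in KO1 alone, Rab33a in KI alone, and Rab27a and Rab27b in KO1 and KI. The family is spread over 18 chromosomes, with 4 members on the X chromosome (Rab9, Rab9b, Rab33a and Rab39b). Exons of 20 members overlap another gene. The overlap covers 75.4% of the exon bases of Rab43 (with Gm45140), 62.4% of Rab24 (with Prelid1) and 25.6% of Rab20 (with E230013L22Rik), and the library preparation does not keep the strand, so reads there cannot be assigned.

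At rest, the message of a few members made up most of the family. Per kilobase of exon, Rab7, the GTPase of late endosomes, was the most abundant, at 99.6 CPM per kb in KO1 WT, 111 in KO2 WT and 124 in KI WT, and made 20.7% of the summed resting level of all members. Next in order stood Rab31, an endosome to Golgi Rab, at a mean over cohorts of 57.8 CPM per kb, and Rab11a of the recycling endosome at 52.6. They were followed by Rab32 of lysosome-related organelles at 42.9 and Rab1 of ER to Golgi transport at 31.9. Rab8b, Rab1b, Rab5c, Rab8a and Rab20 followed at 24.4, 24.1, 21.5, 18.1 and 17 CPM per kb. Together these 10 members made 74.6% of the family's resting message on this scale. Neighbours in this order were not stable between cohorts. Rab32 stood at 19.5 CPM per kb in KO1, 24.95 in KO2 and 84.1 in KI, and Rab8b at 34.1, 12.9 and 26.03. Cohorts were normalised separately, so such level differences between them were not tested.

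**Figure D1:**
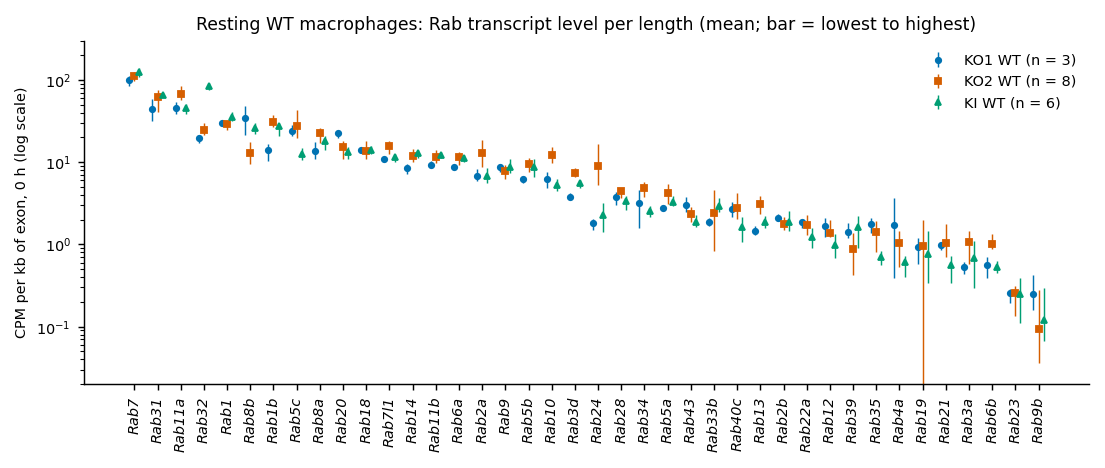
Resting level of members in WT macrophages of the 3 cohorts, in CPM per kilobase of exon on a log axis, with the mean and the lowest to highest library of each cohort. Rab7 stands highest in each cohort, and Rab32 is the abundant member whose level differs most between cohorts (19.5, 24.95 and 84.1 CPM per kb).

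Activation moved many members in WT macrophages, and more of them were called higher than lower against 0 h. At 6 h against 0 h, 26 of 48 tested members passed an adjusted p of 0.05 in KO1, beside 56.7% of all genes tested, with 17 higher (25.7% of genes) and 9 lower (31.1%). In KO2 the count was 31 of 40, beside 70.8%, with 20 higher (32.5%) and 11 lower (38.3%). In KI it was 34 of 43, beside 73.5%, with 23 higher (36.7%) and 11 lower (36.8%). At 24 h against 0 h, 22 of 48 members passed in KO1, beside 41.9% of all genes, with 18 higher (21.3%) and 4 lower (20.6%). The count in KO2 was 25 of 40, beside 59.3%, with 15 higher (29.6%) and 10 lower (29.7%). KI gave 31 of 43, beside 63.8%, with 19 higher (33.9%) and 12 lower (29.9%). Between 6 h and 24 h, 19 members differed in KO1, beside 54.6% of all genes, 26 in KO2, beside 59%, and 28 in KI, beside 65.4%. In KO1 11 were higher at 24 h than at 6 h (28.7% of genes) and 8 lower (25.9%). In KO2 7 were higher (31%) and 19 lower (28%), and in KI 9 were higher (33.6%) and 19 lower (31.8%). The median member stood at 0.37, 0.43 and 0.54 log2 units at 6 h in KO1, KO2 and KI, against a median of all genes at -0.09, -0.11 and 0.00. At 24 h it stood at 0.25, 0.11 and -0.01, against -0.11, -0.03 and 0.03 for all genes. Without culture 33 the KO1 count at 24 h fell to 12. Each call is from edgeR's quasi-likelihood test, with Benjamini-Hochberg adjustment over every gene tested.

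Over the 40 members tested in every cohort, 15 were higher at 6 h in all 3 (37.5%, against 21.8% of the 10612 genes tested in every cohort) and 8 were lower in all 3 (20%, against 27%). At 24 h, 14 were higher in all 3 (35%, against 18.4% of genes) and 3 lower (7.5%, against 13.4%). These counts hold Rab4a at 6 h, Rab6b at both times and Rab9b at 24 h, whose values rest on low levels and are given below. The direction of the smaller changes depends on the scale. Scaled by library size alone, the median of all genes shifted by -1.02, -0.82 and -1.20 log2 units at 6 h in KO1, KO2 and KI relative to TMM scaling, which the values here use, and the share of members called higher at 6 h changed to 22.6%, 33.3% and 22.2% of calls, against 65.4%, 64.5% and 67.6%. At 24 h against 0 h it changed to 13.8%, 33.3% and 14.7%, against 81.8%, 60% and 61.3%. On that scale 6 of the 15 members kept their sign and their call at 6 h in all cohorts, namely Rab5a, Rab8b, Rab10, Rab12, Rab20 and Rab43, and Rab2a, Rab7l1, Rab11a and Rab22a kept their sign in none. At 24 h 8 of the 14 kept their sign in all cohorts. Of these, Rab10 and Rab20 kept their call in all 3. Rab24 lost it in all 3 (adjusted p 0.0782 in KO1, 0.263 in KO2 and 0.218 in KI). Rab9b and Rab43 lost it in KO1 and KI, Rab6a in KO1, and Rab5a and Rab32 in KI. Rab18 kept its sign in none. All 8 lower members at 6 h and all 3 at 24 h kept their sign. Changes below are therefore relative to the median gene.

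Other values moved with time in WT macrophages. The mitochondrial share of counts ran from 6.64 to 8.59% at 0 h, 4.83 to 7.06% at 6 h and 2.14 to 3.28% at 24 h in KO1. It ran from 6.06 to 9.99% at 0 h, 4.29 to 6.74% at 6 h and 2.49 to 4.56% at 24 h in KO2 and from 5.04 to 6.67% at 0 h, 3.15 to 5.4% at 6 h and 1.8 to 2.53% at 24 h in KI. The 13 macrophage markers summed to 67749 to 76505 CPM at 0 h, 57183 to 75402 CPM at 6 h and 25923 to 31605 CPM at 24 h in KI, with 8 of 13 lower at 24 h. In KO1 and KO2 the sums at 0 h and 24 h overlapped. The 13 neutrophil markers summed to 24.3 to 34.3 CPM at 0 h, 120.5 to 167 CPM at 6 h and 274 to 481 CPM at 24 h in KO2. In KI they summed to 54.01 to 85.4 CPM at 0 h, 97.2 to 116 CPM at 6 h and 664 to 1058 CPM at 24 h, and in KO1 to 167 to 191 CPM at 0 h, 248 to 345 CPM at 6 h and 163 to 390.3 CPM at 24 h. Elane and Retnlg were at 0 in KO2 and KI at both later times. The 5 erythroid and megakaryocyte markers found summed to 414 to 1945 CPM at 0 h, 461 to 1951 CPM at 6 h and 59.1 to 295 CPM at 24 h in KO1. Their sums were 119 to 185 CPM at 0 h, 98.4 to 158 CPM at 6 h and 23.5 to 57.7 CPM at 24 h in KO2 and 11.1 to 13.7 CPM at 0 h, 5.78 to 14.1 CPM at 6 h and 2.26 to 8.36 CPM at 24 h in KI. Hba-a1 was at 0 in KO1 and KO2. Sums of the 5 monocyte markers were 112 to 129 CPM at 0 h, 55.6 to 86.3 CPM at 6 h and 16.3 to 28.9 CPM at 24 h in KI. They overlapped between 0 h and 24 h in the other 2 cohorts. The 7 B cell markers summed to 16.7 to 23.9 CPM at 0 h, 1.93 to 3.77 CPM at 6 h and 0.529 to 1.53 CPM at 24 h in KI. From 0 h to 24 h they went from 3.59 to 9.50 CPM to 0.828 to 2.25 CPM in KO1. In KO2 they went from 2.86 to 5.51 CPM to 0.556 to 1.35 CPM. Both the 8 dendritic cell markers and the 9 of T and NK cells stood above their resting range at 6 h. The first summed to 103 to 198, 24.3 to 37.6 and 81.9 to 117 CPM in KO1, KO2 and KI WT at 6 h, and the second to 14.2 to 40.7, 17.6 to 34.7 and 53.2 to 78.5 CPM, with Nkg7 at 0 in all 3. The part of these shifts in the time changes of members was not tested.

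**Figure D2:**
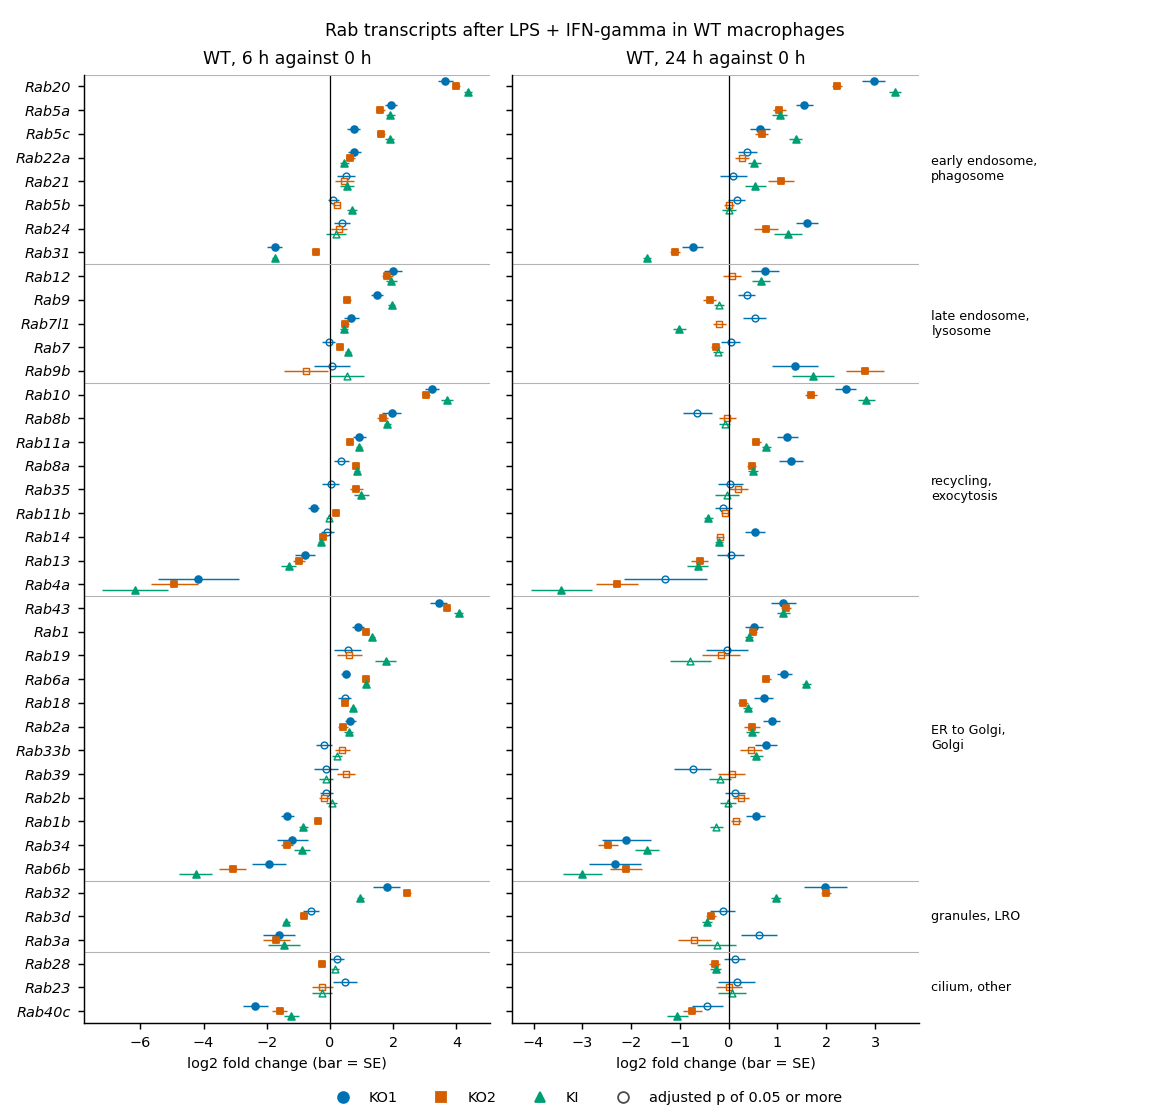
Log2 change of the 40 members tested in every cohort in WT macrophages, at 6 h against 0 h and at 24 h against 0 h, in rows grouped by role. Each cohort has its own marker, filled where the adjusted p is under 0.05. Rab20, Rab10 and Rab43 lie farthest to the right at 6 h and Rab4a and Rab6b farthest to the left, where Rab4a rests on 0 to 3 counts per group.

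Among the 9 early endosome and phagosome Rabs, 8 were tested in each cohort. At 6 h 4, 4 and 6 were higher in KO1, KO2 and KI and 1 was lower each time. Of all genes 25.7%, 32.5% and 36.7% were higher and 31.1%, 38.3% and 36.8% lower. No count by role, here or below, is read as particular to that role. Rab20, a GTPase of early phagosomes that interferon-gamma is known to induce in macrophages, rose most of all members at 6 h in each cohort. In the 3 WT cultures of KO1 it had 27.1, 32.9 and 33.7 CPM at 0 h, 329, 409 and 433 CPM at 6 h and 223, 248 and 264 CPM at 24 h. KO2 WT libraries had a lowest, median and highest level of 15.4, 22.3 and 25.4 CPM at 0 h, 299, 321 and 389 CPM at 6 h and 92.95, 97.6 and 109 CPM at 24 h. The same 3 values in KI WT were 15.3, 19.2 and 21.5 CPM at 0 h, 260.3, 394 and 458 CPM at 6 h and 154, 205 and 241 CPM at 24 h. No stimulated library overlapped a resting one in any cohort, and 24 h stood below 6 h in all 3. The log2 change, ± its standard error, was 3.64 ± 0.24 in KO1, 3.99 ± 0.11 in KO2 and 4.37 ± 0.12 in KI at 6 h (adjusted p 7.6e-39 to 5.4e-10, edgeR) and 2.97 ± 0.23 in KO1, 2.22 ± 0.10 in KO2 and 3.40 ± 0.12 in KI at 24 h.

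Rab5 is the GTPase that defines early endosomes, and its 3 paralogs did not change alike. Rab5a rose at 6 h by 1.93 ± 0.18 in KO1, 1.59 ± 0.14 in KO2 and 1.91 ± 0.15 in KI and stayed higher at 24 h, at 1.55 ± 0.17 in KO1, 1.04 ± 0.14 in KO2 and 1.05 ± 0.15 in KI. Neither time overlapped 0 h in any cohort. Its levels ranged over 13.8 to 15.9 CPM at 0 h, 49.1 to 60.9 CPM at 6 h and 37.7 to 50.4 CPM at 24 h in KO1 WT cultures. The ranges were 16.2 to 28.3 CPM at 0 h, 51.4 to 87.4 CPM at 6 h and 30.2 to 61.2 CPM at 24 h in KO2 WT and 15.4 to 20.6 CPM at 0 h, 52.6 to 82.1 CPM at 6 h and 28.5 to 46.01 CPM at 24 h in KI WT. Rab5c also rose at 6 h, by 0.76 ± 0.21 in KO1, 1.62 ± 0.14 in KO2 and 1.89 ± 0.14 in KI, but in KO1 the call is lost without culture 34 (adjusted p 0.0731) and its sign turns with library size alone (-0.26). Rab5b passed at 6 h in KI alone (0.69 ± 0.15), and its change was 0.10 ± 0.18 in KO1 and 0.21 ± 0.10 in KO2. The difference between the paralogs was not tested. Rab22a, which acts with early and recycling endosomes, was higher at 6 h in all 3 cohorts (0.77 ± 0.20 in KO1, 0.64 ± 0.15 in KO2 and 0.45 ± 0.14 in KI). Rab24, an unusual Rab linked to autophagy, was called in no cohort at 6 h and in all 3 at 24 h, at 1.61 ± 0.23 in KO1, 0.76 ± 0.24 in KO2 and 1.22 ± 0.28 in KI, calls that library size alone ends. Prelid1, whose exons overlap 62.4% of those of Rab24, changed by 2.42 in KO1, 1.22 in KO2 and 2.31 in KI at 24 h, and the part of its reads in the Rab24 values was not tested.

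Rab31, a close relative of Rab22a that moves cargo between the Golgi and endosomes, was the endosomal member that fell. In KO1 WT cultures it had 120.2, 167 and 226 CPM at 0 h, 41.9, 52.4 and 57.5 CPM at 6 h and 96.4, 99.6 and 111 CPM at 24 h. KO2 WT libraries had a lowest, median and highest level of 156, 247 and 286 CPM at 0 h, 149, 176 and 205 CPM at 6 h and 104, 113 and 122 CPM at 24 h, and in KI WT these were 236, 251 and 267 CPM at 0 h, 71.01, 73.95 and 79.6 CPM at 6 h and 71.5, 78.97 and 86.3 CPM at 24 h. The drop at 6 h was clear of the resting range in KO1 and KI and overlapped it in KO2. Log2 changes were -1.76 ± 0.23 in KO1, -0.45 ± 0.10 in KO2 and -1.75 ± 0.08 in KI at 6 h and -0.74 ± 0.22 in KO1, -1.10 ± 0.10 in KO2 and -1.68 ± 0.08 in KI at 24 h. From 6 h on the cohorts parted, with 24 h above 6 h in KO1 (1.02 ± 0.22), below it in KO2 (-0.65 ± 0.10) and not different in KI (0.07 ± 0.08, adjusted p 0.451). The KO1 call at 24 h is lost without culture 33 or without culture 34 (adjusted p 0.0897 and 0.169).

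All 5 late endosome and lysosome Rabs were tested in each cohort. At 6 h 3, 4 and 4 of them were higher in KO1, KO2 and KI, beside 25.7%, 32.5% and 36.7% of all genes. None was lower, beside 31.1%, 38.3% and 36.8%. With library size alone Rab7l1 turned its sign in every cohort (-0.34 in KO1, -0.35 in KO2 and -0.76 in KI) and Rab9 in KO2 (-0.29). Rab7, the most abundant, moved little, by -0.05 ± 0.20 in KO1, 0.32 ± 0.09 in KO2 and 0.56 ± 0.11 in KI, and passed in KO2 and KI. Rab12, known for sorting transferrin receptor to degradation and as a substrate of the kinase LRRK2, rose by 1.998 ± 0.29 in KO1, 1.81 ± 0.18 in KO2 and 1.94 ± 0.18 in KI, and was lower again at 24 h than at 6 h in every cohort (-1.25 in KO1, -1.75 in KO2 and -1.28 in KI). Rab9, which returns receptors from late endosomes to the Golgi, rose at 6 h by 1.48 ± 0.18 in KO1, 0.53 ± 0.13 in KO2 and 1.95 ± 0.10 in KI. Its 24 h level was below the 6 h level (-1.11 in KO1, -0.92 in KO2 and -2.14 in KI), and these times did not overlap in any cohort. Its X-linked relative Rab9b was called in no cohort at 6 h. Its levels were low, 1.42 to 3.89 CPM at 24 h and 0.143 to 1.12 CPM at 0 h in KO2 WT. Per kilobase it stood at 0.0931 CPM in KO2 WT and 0.120 in KI WT at rest. To judge from these levels, it passed the filter in KO2 and KI through the 24 h libraries. Its log2 changes at 24 h there, 2.80 in KO2 and 1.73 in KI, are therefore given with no test. In KO1 it was higher at 24 h (1.36 ± 0.47), a call lost without culture 33 (adjusted p 0.218).

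In recycling and exocytosis, 10, 9 and 9 of 12 members were tested, with 3, 6 and 5 higher and 3 lower each time at 6 h. The shares of all genes were 25.7%, 32.5% and 36.7% higher and 31.1%, 38.3% and 36.8% lower. Rab10, which carries vesicles to the cell surface and is known to deliver TLR4, the LPS receptor, to the surface of macrophages, rose throughout. Its levels in KO1 WT cultures were 17.3, 21.1 and 26.6 CPM at 0 h, 185, 185 and 244 CPM at 6 h and 98.7, 120.9 and 123 CPM at 24 h. The lowest, median and highest values in KO2 WT were 34.7, 41.9 and 53.3 CPM at 0 h, 274, 357 and 394 CPM at 6 h and 92.5, 136 and 191 CPM at 24 h, and in KI WT 15.5, 18.5 and 21.8 CPM at 0 h, 235, 242 and 255 CPM at 6 h and 99.1, 129 and 183 CPM at 24 h. Neither stimulated group overlapped the resting one in any cohort. Changes were 3.24 ± 0.22 in KO1, 3.03 ± 0.13 in KO2 and 3.70 ± 0.18 in KI at 6 h and 2.40 ± 0.21 in KO1, 1.69 ± 0.12 in KO2 and 2.82 ± 0.18 in KI at 24 h (adjusted p 2.1e-29 to 7.9e-10 and 3.6e-18 to 4.9e-08, edgeR). Rab8b, a Rab of exocytic traffic from the Golgi, was raised at 6 h but not at 24 h. It ranged over 100.1 to 230.4 CPM at 0 h, 585 to 695 CPM at 6 h and 93.2 to 113 CPM at 24 h in KO1 WT cultures, 45.4 to 84.4 CPM at 0 h, 148 to 247 CPM at 6 h and 37.9 to 81.9 CPM at 24 h in KO2 WT and 106 to 140.4 CPM at 0 h, 342 to 554 CPM at 6 h and 96.1 to 151 CPM at 24 h in KI WT. The 6 h change was 1.95 ± 0.31 in KO1, 1.67 ± 0.17 in KO2 and 1.81 ± 0.12 in KI, and the 24 h change against 0 h, -0.64 ± 0.30 in KO1, -0.03 ± 0.17 in KO2 and -0.08 ± 0.12 in KI, passed in none. Its paralog Rab8a was higher at 24 h in all 3 cohorts (1.27 ± 0.24 in KO1, 0.47 ± 0.09 in KO2 and 0.50 ± 0.10 in KI).

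Rab11a, the main GTPase of the recycling endosome, was higher at both times in all cohorts (0.92 ± 0.21 in KO1, 0.64 ± 0.09 in KO2 and 0.92 ± 0.09 in KI at 6 h), while Rab11b was called lower at 6 h in KO1 (-0.51 ± 0.17) and higher in KO2 (0.19 ± 0.08). Rab35, of fast recycling from the plasma membrane, passed at 6 h in KO2 (0.83 ± 0.20) and KI (0.99 ± 0.23), against 0.02 ± 0.27 in KO1. Rab4a, another Rab of fast recycling, nearly vanished. Over all libraries of a group it had 3 counts at 6 h against 145 at 0 h in KO1 WT, a ratio of 19.5 of 0 h over 6 h (95% counting interval 6.53 to 95.5). In KO2 WT it had 1 count at 6 h against 86 at 0 h, and in KI WT 0 counts at 6 h against 72 at 0 h, at least 11.2-fold lower at a floor of 3 counts over the group. These intervals and the floor cover counting error only. At 24 h it was at 0.107 to 3.37 CPM in KO1 WT, against 0.687 to 6.37 CPM at 0 h, with an overlap. Over all libraries of a group it had 19 counts at 24 h against 86 at 0 h in KO2 WT, a ratio of 5.24 of 0 h over 24 h (95% counting interval 3.16 to 9.13). In KI WT it had 4 counts at 24 h against 72 at 0 h, a ratio of 12.5 (4.69 to 47.2). To judge from these counts, Rab4a passed the filter in KO2 and KI through the 0 h libraries. Its fall is therefore given as counts, with no test, though the numbers of members called lower hold it. Rab13, known from junctions of epithelia, was low and fell at 6 h (-0.80 ± 0.31 in KO1, -0.98 ± 0.19 in KO2 and -1.31 ± 0.25 in KI), though in KO1 6 of the other settings end the call.

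Of the 16 ER and Golgi Rabs, 12, 12 and 13 were tested, with 4, 5 and 7 higher and 3 lower each time at 6 h. Among all genes the shares were 25.7%, 32.5% and 36.7% higher and 31.1%, 38.3% and 36.8% lower. Rab43, a Golgi Rab known in dendritic cells for cross-presentation, rose sharply and fell back. In KO1 WT cultures it had 13.5, 15.97 and 20.7 CPM at 0 h, 133, 197 and 213 CPM at 6 h and 28.02, 37.5 and 43.5 CPM at 24 h. KO2 WT libraries had a lowest, median and highest level of 10.4, 12.6 and 15.7 CPM at 0 h, 136, 171 and 205 CPM at 6 h and 21.5, 29.8 and 32.8 CPM at 24 h, and KI WT libraries 9.12, 9.82 and 12.7 CPM at 0 h, 122, 185 and 202 CPM at 6 h and 19.2, 21.7 and 28.6 CPM at 24 h. The 3 times did not overlap in any cohort, with 6 h highest and 24 h between 6 h and 0 h. The changes were 3.43 ± 0.28 in KO1, 3.70 ± 0.11 in KO2 and 4.07 ± 0.14 in KI at 6 h and 1.12 ± 0.26 in KO1, 1.18 ± 0.10 in KO2 and 1.12 ± 0.13 in KI at 24 h. The overlapping gene Gm45140 is not among the symbols used here, so its share of these reads was not tested.

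Relative to the median gene, the paralogs Rab1 and Rab1b moved in opposite directions at 6 h, as did Rab6a and Rab6b. Rab1 rose at 6 h by 0.88 ± 0.19 in KO1, 1.13 ± 0.08 in KO2 and 1.33 ± 0.09 in KI, and Rab1b, which shares its role in transport from the ER to the Golgi, was lower, with changes of -1.35 ± 0.20 in KO1, -0.37 ± 0.10 in KO2 and -0.85 ± 0.14 in KI. Rab1 made 68.4 ± 5.4% of the counts of the pair at 0 h, 91.0 ± 1.7% at 6 h and 67.6 ± 1.1% at 24 h in KO1 WT (SD, n = 3). In KO2 WT its share was 48.9 ± 2.2%, 73.0 ± 3.3% and 55.04 ± 1.2%, and in KI WT 56.8 ± 4.8%, 85.6 ± 3.7% and 67.7 ± 3.6%. A share within a library does not depend on the scaling, and at 6 h it was clear of the resting range in all cohorts. At 24 h in KO1 both were called higher (Rab1 0.52 ± 0.18 and Rab1b 0.55 ± 0.19). Rab6a, of traffic within the Golgi and back to the ER, was higher at both times, by 1.14 ± 0.15 in KO1, 0.77 ± 0.09 in KO2 and 1.59 ± 0.09 in KI at 24 h. Its rise at 6 h depends on the scale, as library size alone gave -0.53 in KO1, 0.32 in KO2 and -0.04 in KI. Rab6b, a paralog known mostly from neurons, was lower. It had 1.98, 3.03 and 3.54 CPM at 0 h, 0.497, 0.808 and 0.927 CPM at 6 h and 0.428, 0.473 and 0.787 CPM at 24 h in KO1 WT cultures. Its lowest, median and highest values were 4.47, 4.68 and 6.72 CPM at 0 h, 0, 0.393 and 2.78 CPM at 6 h and 0.315, 0.926 and 1.97 CPM at 24 h in KO2 WT and 2.24, 2.67 and 3.14 CPM at 0 h, 0, 0 and 0.481 CPM at 6 h and 0, 0.363 and 0.705 CPM at 24 h in KI WT, with no overlap between 0 h and later times. To judge from these levels, Rab6b passed the filter through the 0 h libraries, so its fall is given as levels, with no test.

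Rab34, which positions lysosomes from the Golgi and is known to act in phagosome maturation, fell at both times, with changes at 24 h of -2.10 ± 0.50 in KO1, -2.47 ± 0.21 in KO2 and -1.67 ± 0.24 in KI. The groups at 24 h and 0 h did not overlap. Its KO1 call at 6 h is lost under 5 other settings (adjusted p 0.0501 to 0.223), among them without culture 33 and without culture 34. Rab2a, of the ER to Golgi boundary, was higher at 24 h in all cohorts (0.88 ± 0.17 in KO1, 0.48 ± 0.17 in KO2 and 0.49 ± 0.14 in KI), and Rab18, of the ER and lipid droplets, likewise (0.71 ± 0.20 in KO1, 0.30 ± 0.10 in KO2 and 0.39 ± 0.09 in KI). Rab33a, the X-linked relative of the Atg16l1-binding Rab33b, had 1 count over the 6 WT libraries of KI at 0 h, 4 at 6 h and 127 at 24 h, where its level was 0.976 to 3.53 CPM. It passed the filter in KI alone and through the 24 h libraries, so its rise is given as counts, with no test.

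The 11 members of secretory granules and lysosome-related organelles included 10, 3 and 5 tested genes. At 6 h 3, 1 and 1 were higher in KO1, KO2 and KI, beside 25.7%, 32.5% and 36.7% of all genes. Lower were 1, 2 and 3, beside 31.1%, 38.3% and 36.8%. Rab32, which builds melanosomes and related organelles and is known for host defence in macrophages, was a member that rose. It had 39.9, 46.6 and 50.5 CPM at 0 h, 77.99, 114 and 281 CPM at 6 h and 126, 149 and 265 CPM at 24 h in KO1 WT cultures. The lowest, median and highest values were 49.8, 56.8 and 69.8 CPM at 0 h, 279, 309 and 430.1 CPM at 6 h and 192, 226 and 285 CPM at 24 h in KO2 WT and 175, 197 and 214 CPM at 0 h, 358, 381 and 407 CPM at 6 h and 304, 375 and 486 CPM at 24 h in KI WT. Both stimulated times were above the resting range in every cohort, with changes of 1.79 ± 0.44 in KO1, 2.45 ± 0.10 in KO2 and 0.96 ± 0.10 in KI at 6 h and 1.98 ± 0.44 in KO1, 2.0 ± 0.10 in KO2 and 0.97 ± 0.10 in KI at 24 h. In KO1 the 6 h call is lost without culture 35 (adjusted p 0.0588), and in KI its sign at 6 h turns with library size alone (-0.25). Its partner Rab38 passed the filter in KO1 alone and through the 6 h cultures, so its values are given with no test. It had 0.153, 0.225 and 0.515 CPM at 0 h, 2.01, 2.65 and 2.91 CPM at 6 h, and 0, 0.562 and 1.39 CPM at 24 h in KO1 WT. Rab27b, a relative of Rab27a, was the third member higher in KO1 (1.25 ± 0.39), on levels of 2.75 to 4.31 CPM at 6 h, against 1.29 to 1.75 CPM at 0 h. Rab3a and Rab3d, Rabs of regulated secretion, were lower at 6 h. Rab3a changed by -1.61 ± 0.50 in KO1, -1.70 ± 0.43 in KO2 and -1.46 ± 0.50 in KI, and the KO1 call is lost without culture 33 or without culture 35 (adjusted p 0.0546 and 0.126). Rab3d passed in KO2 (-0.83 ± 0.11) and KI (-1.38 ± 0.12). Rab27a, of lytic granule secretion, was low at rest, at 0.350 CPM per kb in KO1 WT and 0.282 in KI WT. To judge from these levels and the direction of its change, it may have passed the filter through the 0 h libraries. Its log2 changes at 24 h, -1.34 in KO1 and -2.45 in KI, are therefore given with no test. Of the 5 remaining Rabs, Rab40c, whose SOCS box binds a ubiquitin ligase, fell at 6 h in all cohorts (-2.36 ± 0.39 in KO1, -1.59 ± 0.23 in KO2 and -1.22 ± 0.23 in KI).

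**Figure D3:**
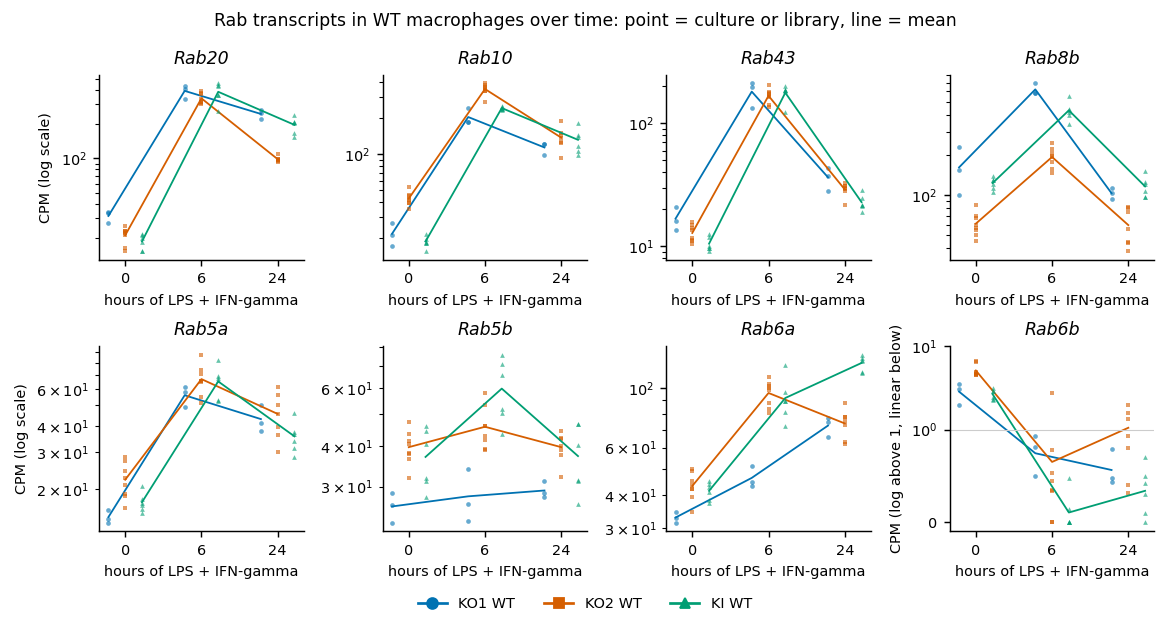
Levels of selected members in WT macrophages at 0 h, 6 h and 24 h, in CPM on a log axis, which for Rab6b is linear below 1 CPM. Each culture or library has 1 point, and a line runs through the mean of each cohort. The times are evenly spaced and not to scale. Rab20 and Rab10 stay above their resting range at 24 h, Rab8b returns to it and Rab6b stays below it.

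The sequence before the start of a gene is where many transcription factors bind, and LPS acts largely through NF-kappaB. The 250 bases before the RefSeq start (build GRCm38.p6, gene strand) are therefore shown for 3 members that rose in all cohorts and for Rab31, which fell. Capitals mark matches to the kappaB core GGGNNNNNCC, on either strand, and to the E-box CACGTG, the letters that bHLH factors such as MITF and TFEB bind. The windows are Rab20 chr8:11478641-11478890 (minus strand), Rab10 chr12:3309970-3310219 (minus strand), Rab5a chr17:53478984-53479233 (plus strand) and Rab31 chr17:65772753-65773002 (minus strand).
Rab20: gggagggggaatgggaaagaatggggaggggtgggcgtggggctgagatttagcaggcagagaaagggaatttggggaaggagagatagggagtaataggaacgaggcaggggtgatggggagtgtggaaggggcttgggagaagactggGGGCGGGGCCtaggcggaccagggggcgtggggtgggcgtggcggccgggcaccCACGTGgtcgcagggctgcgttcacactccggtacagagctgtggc
Rab10: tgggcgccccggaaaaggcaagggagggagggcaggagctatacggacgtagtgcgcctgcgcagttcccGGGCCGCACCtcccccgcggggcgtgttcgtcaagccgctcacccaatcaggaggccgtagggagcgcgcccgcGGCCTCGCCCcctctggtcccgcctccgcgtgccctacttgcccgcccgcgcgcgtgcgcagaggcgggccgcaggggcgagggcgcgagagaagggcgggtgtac
Rab5a: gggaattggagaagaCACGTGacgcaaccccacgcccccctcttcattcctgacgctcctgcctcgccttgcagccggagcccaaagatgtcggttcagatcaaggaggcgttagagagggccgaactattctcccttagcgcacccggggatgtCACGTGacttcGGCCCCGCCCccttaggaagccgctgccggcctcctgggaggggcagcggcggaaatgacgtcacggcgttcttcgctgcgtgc
Rab31: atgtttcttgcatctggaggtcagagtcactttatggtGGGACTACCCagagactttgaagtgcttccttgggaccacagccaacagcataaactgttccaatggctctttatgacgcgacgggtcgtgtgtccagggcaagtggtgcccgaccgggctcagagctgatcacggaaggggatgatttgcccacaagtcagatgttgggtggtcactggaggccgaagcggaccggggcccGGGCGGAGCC

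Rab20 held 1 kappaB match and 1 E-box, Rab10 held 2 kappaB matches, Rab5a held 1 kappaB match and 2 E-boxes, and Rab31, which fell, held 2 kappaB matches. Other members that rose at 6 h differed. Rab8b held no match to these motifs, and Rab43 held 3 kappaB matches in a single window and none in its other windows. Windows could be read for 48 members, 60 windows in all. The kappaB core stood in 65% of the member windows, against 45.8% of all 32851 windows, and the E-box in 8.33%, against 6.02%. The interferon-stimulated response element core GAAANNGAAA stood in 1.67% of member windows, against 2.98% of all, and the gamma-activated site core TTCNNNGAA in 8.33%, against 7.02%. The kappaB core is a loose pattern in GC-rich windows, and a match is not a bound site. GENCODE M21 places the start of Rab20 inside its window.

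Between the genotypes of KO1 no member passed the threshold. With 3 cultures per genotype, edgeR called 0 of 48 tested members at 0 h, 6 h and 24 h, beside 0.0219%, 0.0219% and 0.0073% of all genes, and DESeq2 also called 0. In simulated data the KO1 fit at 24 h called 20.2% of 2-fold changes, against 72.4% in KO2 and 78.6% in KI. The 0 calls in KO1 therefore do not show that members were unchanged. At an unadjusted p under 0.05 there were 3, 2 and 1 members, led by Rab9 at 0 h (0.63 ± 0.18, adjusted p 0.331). The 13 neutrophil markers summed to 403 to 1342 CPM in KO1 KO at 24 h, against 163 to 390.3 CPM in KO1 WT, with 0 of 11 tested called. At 0 h they summed to 272 to 731 CPM in KO, against 167 to 191 CPM in WT. Macrophage markers summed to 17825 to 25712 CPM in KO at 24 h, against 28942 to 36965 CPM in WT. Dendritic cell markers summed to 39.8 to 50.6 CPM in KO at 24 h, against 68.5 to 88.5 CPM in WT. The part of these shifts in the values of members was not tested. Genotype by time also gave 0 of 48 by edgeR and by DESeq2, beside 0% of all genes, with 3 at an unadjusted p under 0.05.

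KO2, with 8 libraries per group, gave 3 of 40 members at 0 h, beside 8.28% of all genes, with 1 higher (3.84% of genes) and 2 lower (4.45%). It gave 9 at 6 h, beside 15.4%, with 4 higher (7.62%) and 5 lower (7.75%), and 7 at 24 h, beside 11.3%, with 3 higher (6.26%) and 4 lower (5.06%). KI gave 2 of 43 at 0 h, beside 2.94%, both higher (2.37% of genes, and 0.574% lower). It gave 4 at 6 h, beside 11.5%, all of them higher (8.01%, and 3.49% lower), and 2 at 24 h, beside 7.2%, with 1 higher (3.42%) and 1 lower (3.78%). The members' own shares were 7.5%, 22.5% and 17.5% in KO2 and 4.65%, 9.3% and 4.65% in KI, and none is read as particular to the family. The split depends on the scale: with library size alone 91.7% of the calls in KO2 at 6 h were higher, against 44.4% here, and 100% at 0 h, against 33.3%, while every call here kept its sign. Markers moved with genotype as well. The summed level of the 13 macrophage markers, Lyz2 among them, ran from 16802 to 24774 CPM in KO2 KO at 0 h, against 36437 to 50935 CPM in KO2 WT, with 1 of 13 higher and 4 lower. At 6 h it ran from 25005 to 34390 CPM in KO, against 36369 to 50596 CPM in WT, with 1 higher and 9 lower, and at 24 h from 20306 to 27814 CPM in KO, against 30426 to 44938 CPM in WT, with 1 higher and 5 lower. The 8 dendritic cell markers summed to 38.3 to 69.1 CPM in KO2 KO at 6 h, against 24.3 to 37.6 CPM in WT, with 1 of 2 tested higher and Cd209a at 0 in WT. The 5 monocyte markers summed to 20.9 to 26.6 CPM in KO2 KO at 24 h, against 7.79 to 15.3 CPM in WT, with 4 of 5 higher. The 13 neutrophil markers summed to 746 to 1071 CPM in KO at 24 h, against 274 to 481 CPM in WT, with 2 of 4 tested higher and Elane, Mpo and Retnlg at 0 in both groups. At 6 h they went the other way, at 86.7 to 107 CPM in KO, against 120.5 to 167 CPM in WT, with 2 of 4 lower. The 5 erythroid and megakaryocyte markers were lower in KO without overlap, at 63.9 to 84.7 CPM, against 119 to 185 CPM in WT at 0 h. Their 6 h values were 43.3 to 61.3 CPM in KO, against 98.4 to 158 CPM in WT, with Hba-a1 at 0 in both groups. In KI, 8 of the 13 macrophage markers were higher and 1 lower in F121A at 6 h, while their sums overlapped (55692 to 68400 CPM in F121A and 57183 to 75402 CPM in WT). At 0 h these sums did not overlap, at 54064 to 67260 CPM in F121A, against 67749 to 76505 CPM in WT. The neutrophil markers summed to 138 to 186 CPM in F121A at 6 h, against 97.2 to 116 CPM in WT. The erythroid and megakaryocyte markers summed to 15.8 to 24.8 CPM in F121A at 0 h, against 11.1 to 13.7 CPM in WT. The 9 markers of T and NK cells summed to 90.4 to 107 CPM in F121A at 6 h, against 53.2 to 78.5 CPM in WT, with Cd3e, Cd3g, Nkg7 and Ncr1 at 0 in both. The part of these shifts in the differences below was not tested, and in bulk RNA fewer cells of a kind and less RNA per cell cannot be told apart.

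**Figure D4:**
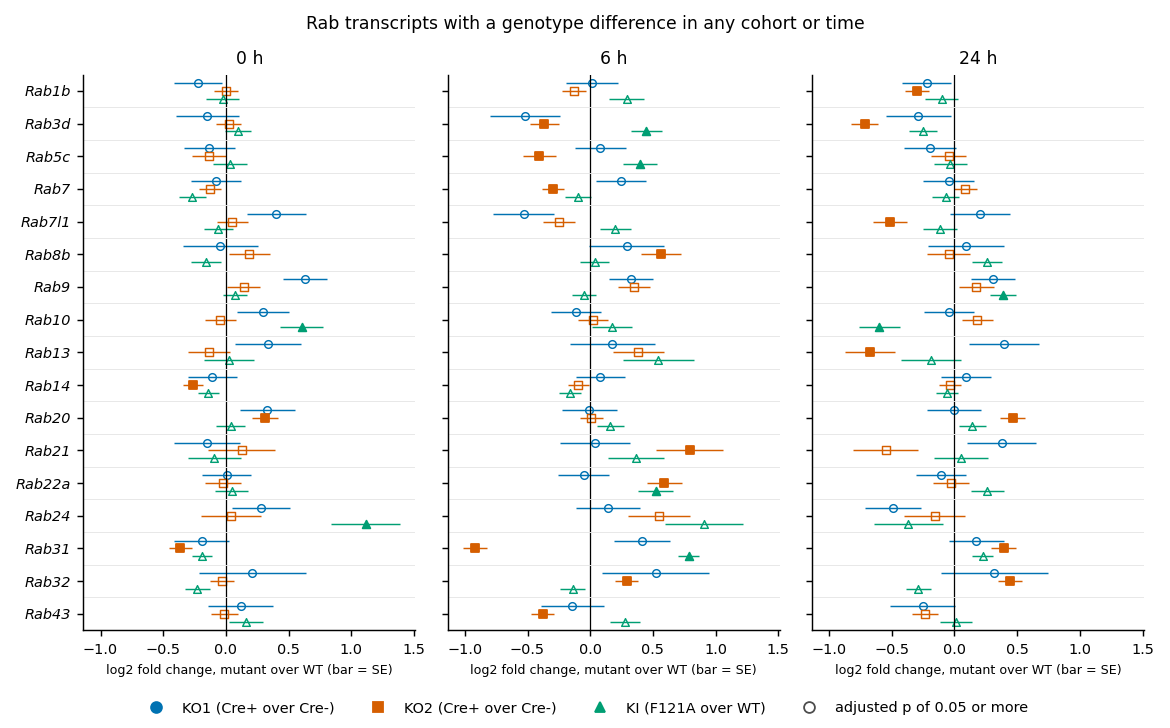
Log2 difference of mutant against WT for each member called in a genotype comparison, at 0 h, 6 h and 24 h in KO1, KO2 and KI, with its standard error; filled points have an adjusted p under 0.05. Rab31 lies at -0.92 in KO2 and at 0.78 in KI at 6 h.

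Rab31 was the member with the smallest adjusted p of a genotype comparison. At 6 h it had a lowest, median and highest level of 61.5, 96.3 and 107 CPM in KO2 KO macrophages, against 149, 176 and 205 CPM in KO2 WT macrophages. In the knock-in it had 111, 136 and 138 CPM in KI F121A macrophages, against 71.01, 73.95 and 79.6 CPM in KI WT macrophages. All KO libraries of KO2 stood below all WT libraries, and all F121A libraries of KI stood above all WT libraries. The log2 differences were -0.92 ± 0.10 in KO2 (adjusted p 1.3e-10, edgeR) and 0.78 ± 0.08 in KI (adjusted p 5.0e-09, edgeR), and the test of the KO2 effect minus the KI effect gave -1.67 ± 0.13 (adjusted p 5.8e-18). In KO2 the effect changed over time. At 0 h the difference was -0.36 ± 0.09, with overlapping groups, and it is lost with library size alone, with the 2 groups fitted on their own and with libraries summed in threes. At 24 h it was reversed, with 138, 149 and 153 CPM in KO2 KO macrophages, against 104, 113 and 122 CPM in KO2 WT macrophages, no overlap and a difference of 0.39 ± 0.10 (adjusted p 0.00417, edgeR). Genotype by time was past the threshold in KO2 (adjusted p 8.5e-10) and in KI (adjusted p 7.9e-07). At 24 h in KI the difference was 0.22 ± 0.08 (adjusted p 0.0939), and in KO1 it was 0.41 ± 0.22 at 6 h and 0.17 ± 0.22 at 24 h, neither past the threshold.

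Rab3d, a Rab of regulated exocytosis, likewise differed in sign between the cohorts at 6 h. At 24 h it had 11.9, 14.3 and 17.6 CPM in KO2 KO macrophages, against 17.8, 25.8 and 28.2 CPM in KO2 WT macrophages, without overlap, a difference of -0.72 ± 0.11 (adjusted p 1.8e-06, edgeR). At 6 h it was -0.37 ± 0.12 in KO2, where the groups overlap, and 0.45 ± 0.13 in KI, where they do not. The 6 h calls are lost with library size alone and without the filter in each cohort. They are also lost with libraries summed in threes in KO2 and in pairs in KI, and in KI with the 2 groups fitted on their own. The KO2 effect minus the KI effect was -0.78 ± 0.17 at 6 h (adjusted p 3.7e-04) and -0.47 ± 0.15 at 24 h, the second lost under 6 other settings (adjusted p 0.0543 to 0.238).

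Among the other early endosome Rabs, Rab20 was higher in KO of KO2 at 24 h, with 115, 132 and 172 CPM in KO2 KO macrophages, against 92.95, 97.6 and 109 CPM in KO2 WT macrophages. The groups did not overlap, and the difference was 0.46 ± 0.10 (adjusted p 4.4e-04, edgeR). At 0 h its difference of 0.31 ± 0.10 overlapped and was lost under 5 other settings (adjusted p 0.0509 to 0.299). Rab22a was higher in the mutants of both cohorts at 6 h, by 0.59 ± 0.14 in KO2 and 0.52 ± 0.14 in KI, the KI groups without overlap (14.7, 17.7 and 18.6 CPM in F121A and 9.06, 12.1 and 14.4 CPM in WT). The KI call is lost with library size alone and without the filter. Rab21, a Rab that carries integrins, was higher in KO2 KO at 6 h (0.79 ± 0.27) but not with the 2 groups fitted on their own. Rab5c was lower in KO2 KO (-0.41 ± 0.13) and higher in F121A (0.40 ± 0.13) at 6 h, with a difference of effects of -0.77 ± 0.20 (adjusted p 0.00331), and each of the 3 is lost with library size alone. The KO2 and KI calls are also lost without the filter. That of KI is lost too with DESeq2 size factors, with libraries summed in pairs and with the conflicting library left out. Rab24 had 6.28, 8.66 and 23.02 CPM in KI F121A macrophages, against 2.87, 4.58 and 6.43 CPM in KI WT macrophages at rest, a difference of 1.11 ± 0.28. The highest value, 23.02 CPM, is that of F121A replicate 5, and without it the adjusted p is 0.0720.

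Of the late endosome Rabs, Rab7 was lower in KO2 KO at 6 h (-0.30 ± 0.09) and Rab7l1 at 24 h (-0.51 ± 0.14), while Rab9 was higher in F121A at 24 h (0.39 ± 0.10). The Rab7l1 call held in all settings run, whereas those of Rab7 and Rab9 are lost with library size alone and without the filter. That of Rab7 is also lost with libraries summed in threes, and that of Rab9 with the 2 groups fitted on their own. In recycling and exocytosis, Rab10 at 24 h had 80.2, 87.6 and 94.7 CPM in KI F121A macrophages, against 99.1, 129 and 183 CPM in KI WT macrophages, without overlap, a difference of -0.60 ± 0.16 (adjusted p 0.0156, edgeR) that held in all settings run. In KO2 its 24 h difference was 0.18 ± 0.12 (adjusted p 0.392), and the KO2 effect minus the KI effect was 0.77 ± 0.20 (adjusted p 0.00560). At rest Rab10 was called higher in F121A (0.60 ± 0.17), which rests on replicate 5 at 62.2 CPM, and the adjusted p without that library is 0.339. Rab8b was higher in KO2 KO at 6 h, with 167, 281 and 422 CPM in KO2 KO macrophages, against 148, 194 and 247 CPM in KO2 WT macrophages, an overlap and a difference of 0.56 ± 0.16 (adjusted p 0.0105, edgeR). Rab13 was lower in KO2 KO at 24 h (-0.67 ± 0.20) on levels of 2.06 to 4.35 CPM in KO and 2.995 to 6.30 CPM in WT, and Rab14, of endosome to Golgi traffic, was lower at 0 h (-0.26 ± 0.08). Both are lost without the filter. The Rab14 call is also lost with library size alone, with the 2 groups fitted on their own and with libraries summed in threes.

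Rab32 was higher in KO2 KO at 6 h and 24 h. At 24 h it had 277, 312 and 353 CPM in KO2 KO macrophages, against 192, 226 and 285 CPM in KO2 WT macrophages, with a small overlap and a difference of 0.45 ± 0.10 (adjusted p 5.8e-04, edgeR). At 6 h the difference was 0.29 ± 0.09, lost with the 2 groups fitted on their own and with libraries summed in threes. The KO2 effect minus the KI effect was 0.46 ± 0.14 at 6 h and 0.73 ± 0.14 at 24 h (adjusted p 7.2e-05 at 24 h), and the 6 h call is lost without the filter (adjusted p 0.0663). Of the Golgi Rabs, Rab43 was lower in KO2 KO at 6 h (-0.38 ± 0.09) and Rab1b at 24 h (-0.30 ± 0.10). Both calls are lost with library size alone and without the filter. That of Rab1b is also lost with DESeq2 size factors and with libraries summed in threes. For Rab43 the KO2 effect minus the KI effect was -0.62 ± 0.15, lost with library size alone. Rab38 failed the filter in KO2 and KI alone and entered the joint fit on levels of at most 3.65 CPM. Its difference of effects of 2.12 at 6 h is therefore given with no test. Of 44 members tested in the joint fit, 0 differed between the KO2 and KI effects at 0 h by edgeR (3 at an unadjusted p under 0.05, and 1 by DESeq2), beside 3.87% of all genes. At 6 h 6 differed, Rab38 among them, beside 12.2%, and at 24 h 3, beside 7.1%. Genotype by time passed for 7 of 40 members in KO2 (Rab3d, Rab13, Rab20, Rab21, Rab22a, Rab31 and Rab32), beside 11.9% of all genes. Those of Rab20 and Rab32 are lost with library size alone, without the filter and with libraries summed in threes, and that of Rab13 without the filter. In KI it passed for 4 of 43 (Rab3d, Rab10, Rab24 and Rab31), beside 8.29%, and that of Rab3d is lost with library size alone, without the filter and with libraries summed in pairs. Of the 27 genotype calls, 10 held in all settings run, of the 11 for genotype by time 7 and of the 9 for KO2 minus KI 5. The 9 hold Rab38, which is given with no test.

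**Figure D5:**
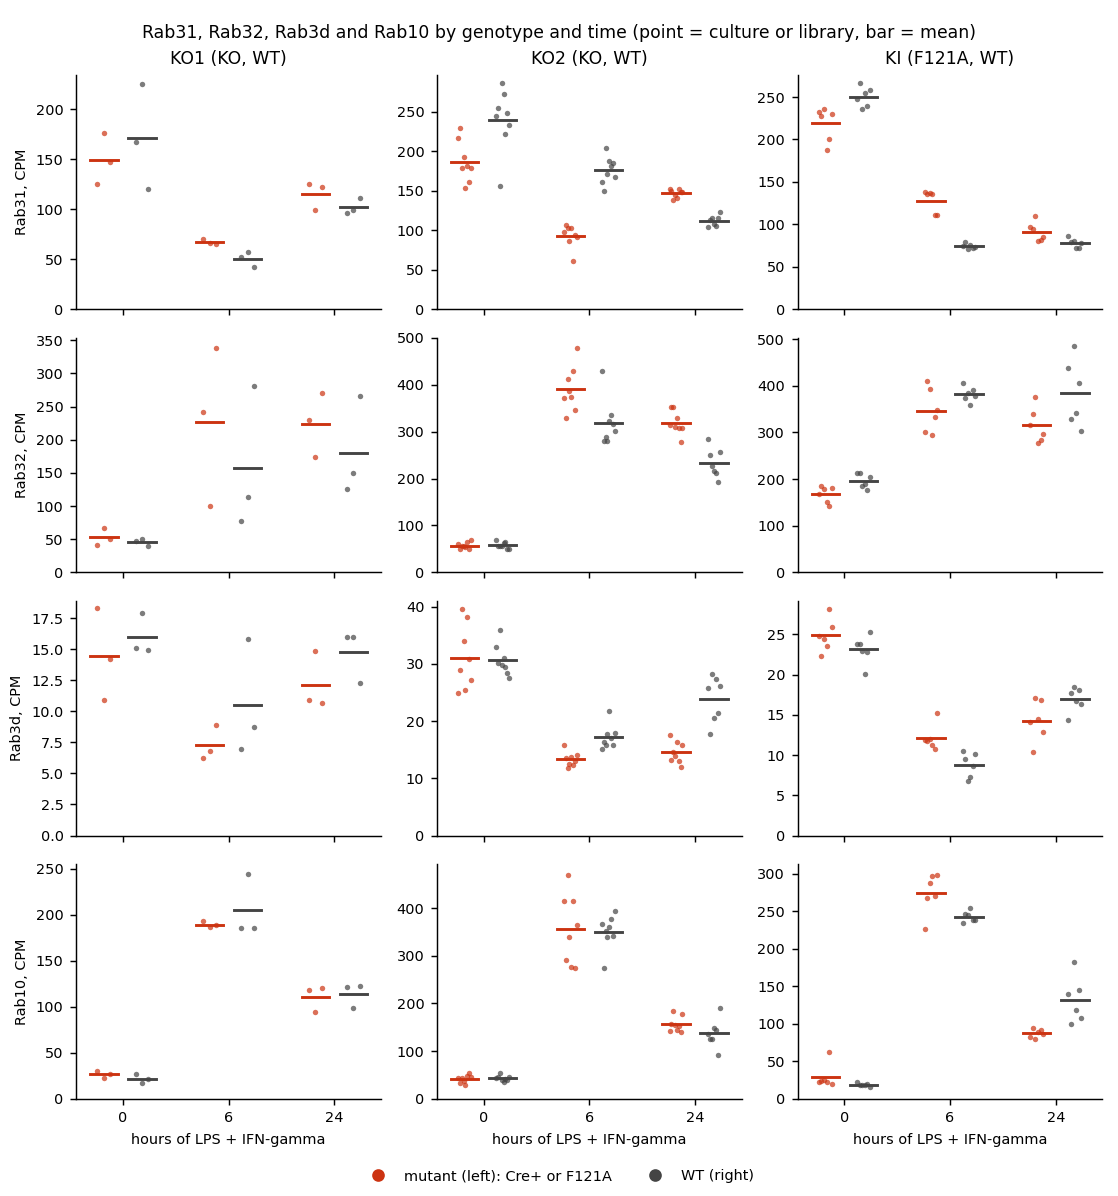
Levels of selected members in mutant (left of each pair) and WT macrophages at 0 h, 6 h and 24 h in KO1, KO2 and KI, in CPM on a linear axis. Each culture or library has 1 point, the group mean is a bar, and times are evenly spaced. At 6 h Rab31 is lower in KO of KO2 and higher in F121A of KI, without overlap in either cohort.

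The proteins that drive the Rab cycle were read from 4 lists, and their means are given with the SD over libraries or cultures. Of 9 genes of prenylation and GDI function, all found, 3, 3 and 4 were lower at 6 h in WT of KO1, KO2 and KI, and 0, 1 and 2 were higher. Gdi2, which takes GDP-bound Rabs off membranes, averaged 199 ± 37.5, 292 ± 29.5 and 310.0 ± 42.1 CPM at 6 h in KO1, KO2 and KI WT, against 560.0 ± 38.5, 701 ± 122 and 829.9 ± 53.5 CPM at 0 h, and fell by 1.49, 1.26 and 1.42 on the log2 scale. Of 40 exchange factors 36 were found and 35, 33 and 34 tested, with 15, 14 and 16 higher (42.9%, 42.4% and 47.1%) and 10, 11 and 10 lower (28.6%, 33.3% and 29.4%) at 6 h. Of all genes 25.7%, 32.5% and 36.7% were higher and 31.1%, 38.3% and 36.8% lower. Rin2, an exchange factor of Rab5, averaged 46.05 ± 0.630, 38.02 ± 7.54 and 42.1 ± 3.97 CPM at 0 h, 624 ± 166, 537 ± 95.8 and 209.8 ± 14.3 CPM at 6 h and 48.8 ± 8.18, 43.4 ± 6.32 and 22.6 ± 3.40 CPM at 24 h in WT of the 3 cohorts. Dennd1a, an exchange factor of Rab35, rose at 6 h by 2.79 in KO1, 2.40 in KO2 and 3.02 in KI. Rab3il1, an exchange factor of Rab3 and Rab8, fell by 4.82, 3.50 and 4.17.

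Of 34 GTPase-activating proteins 33, 30 and 31 were tested. Of these 9, 8 and 13 were higher (27.3%, 26.7% and 41.9%) and 13, 14 and 12 lower (39.4%, 46.7% and 38.7%) at 6 h in WT of the 3 cohorts. Of 58 effectors and tethers found of 60, 52, 46 and 49 were tested, and 10, 11 and 12 were higher (19.2%, 23.9% and 24.5%) and 24, 24 and 25 lower (46.2%, 52.2% and 51%). Beside both lists, 25.7%, 32.5% and 36.7% of all genes were higher and 31.1%, 38.3% and 36.8% lower. No share of a list, here or below, is read as particular to it. Rab11fip1, an effector of Rab11 in recycling, rose by 5.18 in KO1, 5.39 in KO2 and 5.34 in KI on the log2 scale, and Rilpl2, an effector of Rab8 and Rab10 once LRRK2 has phosphorylated them, rose by 2.05 in KO1, 1.88 in KO2 and 2.28 in KI. Between genotypes at 6 h, 6 of 33 exchange factors were higher (18.2%, beside 7.62% of genes) and 5 lower (15.2%, beside 7.75%) in KO2 KO. In F121A of KI 5 of 34 were higher (14.7%, beside 8.01%) and 0 lower (beside 3.49%). Rin2 averaged 509 ± 48.1 CPM in F121A and 209.8 ± 14.3 CPM in KI WT at 6 h (1.28 ± 0.10, adjusted p 5.7e-12, edgeR), and its KO2 effect minus its KI effect was -1.65 ± 0.19. Rab3il1 was higher in F121A (1.39 ± 0.17) and lower in KO2 KO (-0.92 ± 0.21) at 6 h, on levels of 10.2 ± 1.68 CPM in F121A against 3.81 ± 0.982 CPM in KI WT and 3.12 ± 1.25 CPM in KO2 KO against 6.18 ± 2.16 CPM in KO2 WT. Dennd1a had the same pair of directions (0.58 ± 0.10 in KI and -0.45 ± 0.10 in KO2). Of the 31 GTPase-activating proteins tested 9 were higher (29%, beside 8.01% of genes) and 1 lower (beside 3.49%) in F121A at 6 h. Among those higher was Tbc1d14, known for its place in autophagy with Rab11 (0.77 ± 0.10). In KO2 KO 4 of 30 were higher (13.3%, beside 7.62%), and those lower are not counted here.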

How the data were processed

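RNA was profiled by Smart-Seq2, with oligo-dT priming, paired reads of 38 bases and neither strand nor molecular barcodes, per the labels' protocols. For each cohort the authors deposited raw counts by gene symbol, 1 column a library. TopHat, HTSeq and build mm10 are named in the submitters' processing notes, with versions not given in the sources used here. Names, positions and exon lengths came from GENCODE M21, and upstream sequence from RefSeq (GRCm38.p6).

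Counts were filtered with filterByExpr, scaled by TMM and fitted in edgeR 4.0.16 (R 4.3.3) by quasi-likelihood, 1 fit per cohort over its 6 group means. KO2 and KI effects were compared in 1 joint fit. In each of 24 comparisons Benjamini-Hochberg adjustment covered every gene tested, at a threshold of 0.05. Standard errors were taken as |log2 fold change| / sqrt(F). CPM values use TMM-scaled library sizes. Values after ± are standard errors for log2 changes and SDs for levels. The 3 repeats of each KO1 culture were summed. No library was a copy of another of its group (smallest chi-square per degree of freedom 2.79 over 467 pairs). The fits were tested on simulated data. Alternatives were DESeq2 1.42.0, DESeq2 size factors, library size alone, no filter, the compared groups alone, a replicate block, libraries summed in pairs or threes, the 2 conflicting libraries left out, each KO1 culture left out and F121A replicate 5 at 0 h left out.

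Members, roles, gene lists and tests were chosen with earlier results of these data known. Named members are those called in a genotype comparison, genotype by time or KO2 minus KI, the 8 highest and 8 lowest called alike in all cohorts over time and the 10 highest per length; other members were named by role after their values were seen. Of each machinery list, up to 3 called genes of smallest adjusted p per comparison could be named. Of the 58 members, 56 were found in GENCODE by their own symbol and 2 through a synonym.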

Additional observations from a re-analysis of the deposited data

Results flagged for a closer look

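Of 54 combinations of a named member and a group of libraries, 10 held a library far from the rest, where chance alone gives about 5%. Several of the 10 fall in the same group. In F121A of KI at 0 h, replicate 5 had Rab10 at 62.2 CPM, against 19.3 to 24.98 CPM in the other libraries, and Rab24 at 23.02 CPM, against 6.28 to 9.23 CPM. In KO of KO2 at 6 h, replicate 7 had Rab31 at 61.5 CPM, against 86.7 to 107 CPM in the others, and Rab5c at 208 CPM, against 117 to 154 CPM. In WT of KO2 at 6 h, Rab5c stood at 272 CPM in replicate 4, Rab32 at 430.1 CPM in replicate 1, Rab22a at 27.4 CPM in replicate 7 and Rab3d at 21.9 CPM in replicate 6. Rab20 stood at 109 CPM in replicate 9 of WT of KO2 at 24 h, and Rab3d at 15.2 CPM in replicate 6 of F121A of KI at 6 h. No cause was tested.

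Genotype by time passed the threshold for 7 members in KO2. Adjusted p-values from edgeR were 8.5e-10 for Rab31, 0.00104 for Rab3d, 0.0235 for Rab13, 0.0310 for Rab32, 0.0311 for Rab21, 0.0328 for Rab22a and 0.0404 for Rab20, and those of Rab13, Rab20 and Rab32 are lost under 1 to 3 other settings (adjusted p 0.0546 to 0.348). In KI these were 7.9e-07 for Rab31, 0.00189 for Rab10, 0.0150 for Rab3d, a call lost under 3 other settings (adjusted p 0.0518 to 0.145), and 0.0191 for Rab24.

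The KO2 effect differed from the KI effect at 6 h for Rab31 (adjusted p 5.8e-18, edgeR), Rab3d (0.000368), Rab43 (0.00102), Rab5c (0.00331), Rab38 (0.00771) and Rab32 (0.0137), and at 24 h for Rab32 (7.2e-05), Rab10 (0.00560) and Rab3d (0.0447). KO2 and KI differ in allele, sex of the groups and cohort together, which cannot be told apart here.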

How the results depend on the processing

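The counts of members called kept within 1.5 times of those reported, except where named here. In KO2 at 0 h the 3 calls were 1 without the filter, 0 with the 2 groups fitted alone and 0 with libraries summed in threes. In KI the 2 calls at 0 h were 0 without F121A replicate 5, the 4 at 6 h were 1 with library size alone, 2 without the filter and 2 with libraries summed in pairs, and the 2 at 24 h were 1 with library size alone, 1 without the filter and 1 with the 2 groups fitted alone. KO2 minus KI at 0 h gave 1 member with DESeq2, 1 without the filter and 2 with the replicate block, against 0. Leaving out each KO1 culture gave 19 to 28 members at 6 h against 0 h, 12 to 22 at 24 h against 0 h, 16 to 20 at 24 h against 6 h, and 0 to 0 between genotypes and for genotype by time. With library size alone 10 of 17, 11 of 20 and 11 of 23 members called higher at 6 h against 0 h in KO1, KO2 and KI WT kept their sign, and 10 of 18, 14 of 15 and 10 of 19 at 24 h; all called lower did, as did 16 of the 19 lower at 24 h against 6 h in KO2. Among results followed one by one the sign turned for Rab5c in KO1 WT at 6 h (-0.26), Rab32 in KI WT at 6 h (-0.25) and Becn1 in F121A at 6 h (-0.0075, and -0.0020 without the filter), none of them past the threshold. Library size alone also turned the split between higher and lower calls at 24 h against 6 h in KO2 WT (57.7% higher, against 26.9%) and KI WT (50%, against 32.1%). For KO2 minus KI it gave 66.7% higher at 6 h, against 33.3%. The cause was not tested.

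Of the 27 genotype calls 10 held in every alternative run, of 11 for genotype by time 7, of 9 for KO2 minus KI 5 and of 81 named WT time calls 64. The 9 hold Rab38, and the 81 hold Rab4a, Rab6b and, for KO2 and KI, Rab9b, which are given with no test. Replicate numbers do not mark shared animals in the labels, and in KO2 and KI none of 15 pairs of groups had every same-numbered pair correlated above 0.1. In KO1, 13 of 18 numbered pairs correlated best with their own number. The replicate block gave 9 members in KO2 at 6 h and 7 at 24 h, and ended 2 calls, Rab20 in KO2 at 0 h (adjusted p 0.0509) and Rab3d in KO2 minus KI at 24 h (0.0543). Depth limits Rab4a and Rab33a, which rest on a few counts, and Rab6b, Rab9b, Rab27a and Rab38, whose levels are low.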
